A study of Mus musculus with 4 samples.

Results

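The smooth muscle contractile genes described here are 10 genes, Acta2, Actg2, Myh11, Cnn1, Tagln, Des, Smtn, Lmod1, Synpo2 and Mylk, out of 32585 genes or identifiers on the array. They were chosen by name, through the RefSeq accession given for each probe, and all 10 were represented, by 13 probes in all. The RNA came from male mice of 20 weeks, either WT or IP6K2-/- littermates, in which the exon encoding the kinase domain of IP6K2 was deleted. All animals had been changed from normal chow to a purified diet for 1 week and had then gone without food for 48 h. Spinal cord and duodenum of each genotype were hybridized to 4 1-colour Agilent arrays, 1 array for each genotype and tissue, so no difference has a replicate check, no test was made, and animal, genotype and array cannot be told apart. Values are log2 of the processed signal, an intensity after background subtraction, minus the 75th percentile of the array. Differences between genotypes are those of the array labelled IP6K2-/- minus the WT array.

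The contractile apparatus of smooth muscle slides myosin filaments along actin filaments, and contraction starts when calcium-calmodulin activates myosin light chain kinase. The actin filaments attach to dense bodies and to a desmin and actin scaffold, and proteins bound to them limit or stabilize their movement. Many of these genes are controlled by serum response factor (SRF) and its coactivator myocardin, which act through CArG boxes. In the gut the genes mark the muscle layers of the wall, the muscularis mucosae and vessel walls, whereas in the spinal cord the smooth muscle lies in the vessels.

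The tissues were checked against marker genes. Of 8 intestinal epithelium markers, all were well above background on both duodenum arrays, and Epcam, Cdx1, Cdx2 and Alpi were not well above background on either spinal cord array. The summed signal of these markers over the 75th percentile was 1.17 and 1.19 in the spinal cord and 2113 and 990 in the duodenum, WT first. All 7 spinal neuron markers were well above background on both spinal cord arrays, with sums of 280 and 269, and 2 in WT and 6 in labelled IP6K2-/- duodenum, with sums of 18.7 and 10.9. The Ip6k2 probe, for the targeted gene, gave a processed signal of 452 in WT and 1320 in the spinal cord labelled IP6K2-/-, and had 139 and 572 in the duodenum. After normalization its log2 difference was 1.45 in the spinal cord and -0.21 in the duodenum. Since the files do not tell whether this probe lies in the exon that was removed, it does not check the genotypes, which are given as labelled. The arrays differed in brightness, with a 75th percentile of the signal between 68.0 for WT duodenum and 971 for spinal cord labelled IP6K2-/-, and between 51.6% and 77.4% of probes well above background. Since the WT duodenum array was the dimmest, weak probes are least well measured there.

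The Acta2 promoter is shown because Acta2 is the only one of 7 contractile genes with a promoter in the RefSeq table used, Acta2, Cnn1, Des, Lmod1, Mylk, Smtn and Synpo2, whose window held a match to a CArG-like motif. The windows run from 250 bases before to 50 bases after the annotated start. A perfect CArG box (2 C, then 6 bases that are A or T, then 2 G) was in none of the 7, and in 1.63% of all 32851 windows. A CArG-like match, with 1 of the 6 core bases not A or T, was in 8.50% of all windows and occurred 2 times in that of Acta2, starting 84 and 34 bases before the start. The motif reads the same on both strands, so 1 scan covers both, and neither match overlaps the other. The 250 bases before the start of Acta2 lie on the minus strand at chr19:34255374-34255623 of GRCm38.p6, with the CArG-like matches in capitals. Beside them stand the bases before the starts of Des, on the plus strand at chr1:75360042-75360291, and of Cnn1, on the plus strand at chr9:22099003-22099252, as examples without a match.
Acta2: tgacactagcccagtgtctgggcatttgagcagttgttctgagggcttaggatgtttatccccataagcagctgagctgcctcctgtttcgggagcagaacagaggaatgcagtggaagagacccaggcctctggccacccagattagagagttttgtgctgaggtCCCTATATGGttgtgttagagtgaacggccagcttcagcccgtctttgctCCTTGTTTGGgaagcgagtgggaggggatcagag
Des: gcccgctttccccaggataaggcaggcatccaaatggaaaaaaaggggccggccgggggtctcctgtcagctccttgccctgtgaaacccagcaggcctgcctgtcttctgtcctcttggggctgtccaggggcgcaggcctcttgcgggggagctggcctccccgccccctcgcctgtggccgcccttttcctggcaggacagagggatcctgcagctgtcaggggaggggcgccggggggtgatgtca
Cnn1: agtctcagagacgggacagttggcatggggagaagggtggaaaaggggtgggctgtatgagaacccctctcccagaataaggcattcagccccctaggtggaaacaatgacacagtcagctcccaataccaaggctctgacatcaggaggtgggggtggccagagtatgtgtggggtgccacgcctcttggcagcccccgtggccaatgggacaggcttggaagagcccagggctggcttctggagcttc
A match is a description of these letters, and the lack of one concerns these windows alone.

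Relative to the median gene, all 10 contractile genes were higher in the duodenum than in the spinal cord wherever a difference could be measured. On the WT arrays 9 were measured, with log2 differences between 2.30 for Synpo2 and 12.13 for Actg2, and a median of 4.06. On the arrays labelled IP6K2-/- all 10 were higher, with a median of 3.52. Every measured member was past 2-fold relative to the median gene, as were 30.2% of 25219 genes on the WT arrays and 30.3% of 25727 on the arrays labelled IP6K2-/-. The median gene differed by 0 in both, where a gene with no fold to give was entered at 0. Among genes detected (well above background) on both tissues' arrays, the median gene differed by 0.63 and 0.30, which leaves medians of 3.43 and 3.32 for the contractile genes relative to it. Scaled on the spiked-in control transcripts, the median gene differed by -4.33 on the WT arrays and by -1.65 on the arrays labelled IP6K2-/-, lower in the duodenum. On that scale 4 of 9 contractile genes, Acta2, Actg2, Cnn1 and Des, were higher in the WT duodenum and 9 of 10 in the duodenum labelled IP6K2-/-, whereas relative to the median gene all measured were higher under each of the processings tried.

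Actg2 showed the widest span of the contractile genes. Actg2, the enteric gamma actin of visceral smooth muscle, had signals of 8.42 in WT and 7.00 in labelled IP6K2-/- spinal cord, and of 2829 in WT and 4593 in labelled IP6K2-/- duodenum. Relative to each array's 75th percentile these are log2 values of -6.75, -7.12, 5.38 and 3.83. Actg2 was therefore well above background but near the lower end of the range on both spinal cord arrays, and differed between the tissues by 12.13 on the WT arrays and by 10.95 on the arrays labelled IP6K2-/-. Under normexp background correction these values were 6.19 and 7.30, with the order of the genotypes turned, and with flagged backgrounds replaced they were 8.45 and 7.31. Acta2, the alpha actin of vascular and other smooth muscle, had log2 values of -0.62 and -0.55 in the spinal cord and 4.68 and 4.13 in the duodenum, WT first. Its differences between tissues were 5.30 and 4.68, and its 10 spots on each array varied with an SD between 0.038 and 0.11. The files hold no probe sequences, so binding of these probes to other actin transcripts could not be examined.

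Cnn1, calponin, which binds actin and restrains myosin, was at -2.74 and -3.21 in the spinal cord and at 4.40 and 3.61 in the duodenum. Tagln, transgelin, an actin-binding protein of the calponin family, was at 0.86 and 1.26 in the spinal cord and at 4.58 and 4.27 in the duodenum. Cnn1 thus differed between the tissues by 7.13 and 6.83, and Tagln by 3.71 and 3.01. Smtn, smoothelin, which binds actin filaments in contractile cells, was at 0.25 and 1.55 in the spinal cord and at 3.89 and 3.12 in the duodenum. The gap between tissues of Smtn was 3.64 on the WT arrays and 1.56 on the arrays labelled IP6K2-/-, and its second probe gave 2.86 and 0.67.

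Myh11, the smooth muscle myosin heavy chain, was at -4.16 and -4.38 in the spinal cord and at -0.18 and -0.04 in the duodenum, differences of 3.98 and 4.34. Mylk, which encodes myosin light chain kinase, was at -2.75 and -2.84 in the spinal cord and at 1.30 and 0.79 in the duodenum, differences of 4.06 and 3.62. These motor genes had the same order of tissues in each labelled genotype.

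Des, desmin, the intermediate filament of muscle cells of every kind, was at -5.63 in WT and -2.19 in labelled IP6K2-/- spinal cord, and at 1.77 in WT and 0.35 in labelled IP6K2-/- duodenum. The tissues differed by 7.40 on the WT arrays and by 2.53 on the arrays labelled IP6K2-/-, the widest disagreement between the labelled genotypes among the 9 genes with both values. Under normexp it was no longer the widest, with 2.82 and 1.95 for Des against 2.95 and 1.14 for Smtn, and with flagged backgrounds replaced Des had 4.89 and 1.96. Synpo2, which encodes an actin-bundling protein of Z-discs and dense bodies, was at -1.62 and -2.02 in the spinal cord and at 0.68 and 0.70 in the duodenum by its brightest probe. Lmod1, leiomodin, which nucleates actin filaments, had signals of 1.28 and 1.66 in the spinal cord and 1.47 on WT duodenum, none of them well above background, and a signal of 15.2 on the array labelled IP6K2-/- duodenum, which was. On the arrays labelled IP6K2-/- Lmod1 was at least 10.6-fold higher in the duodenum under the main processing, taking the dimmest detected probe of the spinal cord array as its level there. Relative to the median gene this is a log2 difference of 3.41, which was 1.41 under either normexp.

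**Figure D1:**
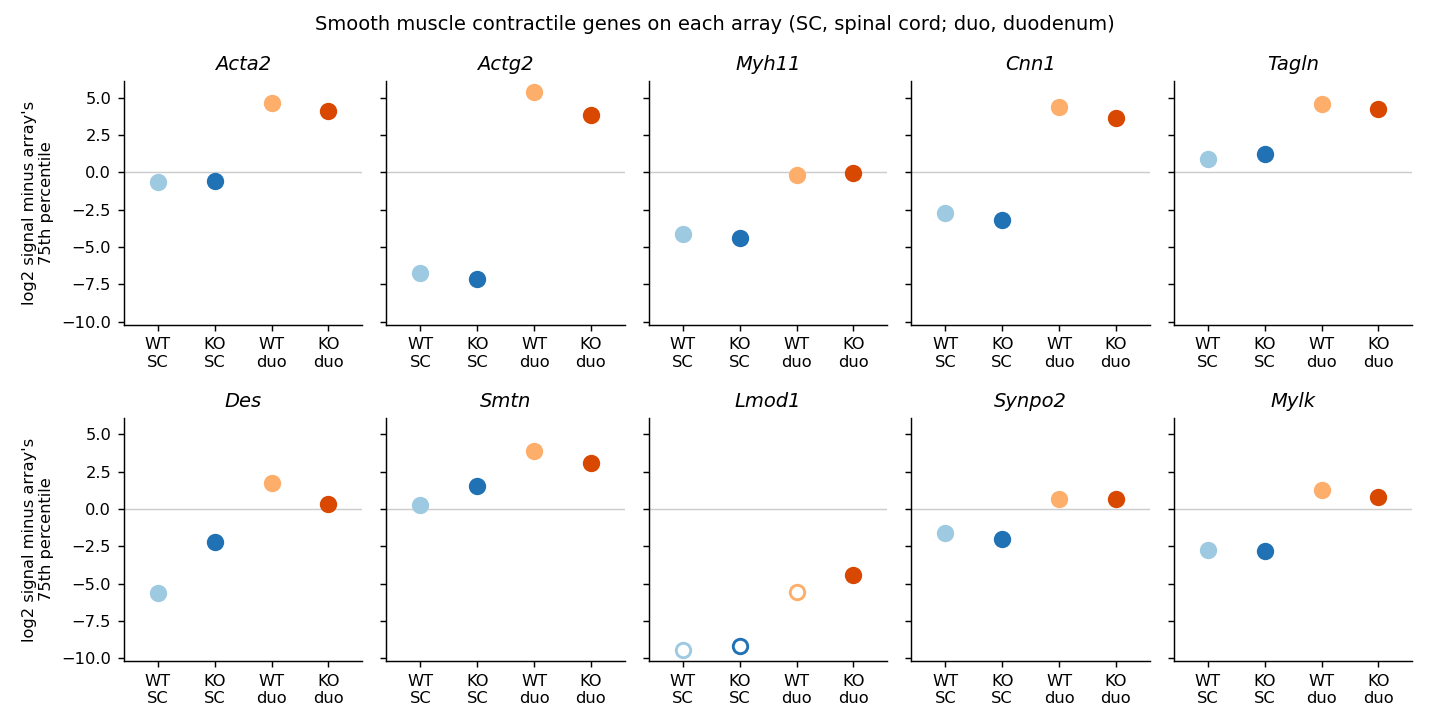
Log2 signal minus the 75th percentile of the array (vertical axis) of the 10 contractile genes on each of the 4 arrays, by the brightest probe of each gene (SC, spinal cord; duo, duodenum; KO, array labelled IP6K2-/-). Filled points were well above background and open points were not. Each of the 9 genes well above background on all 4 arrays lies higher in the duodenum in each labelled genotype. Lmod1 was well above background on 1 array alone.

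**Figure D2:**
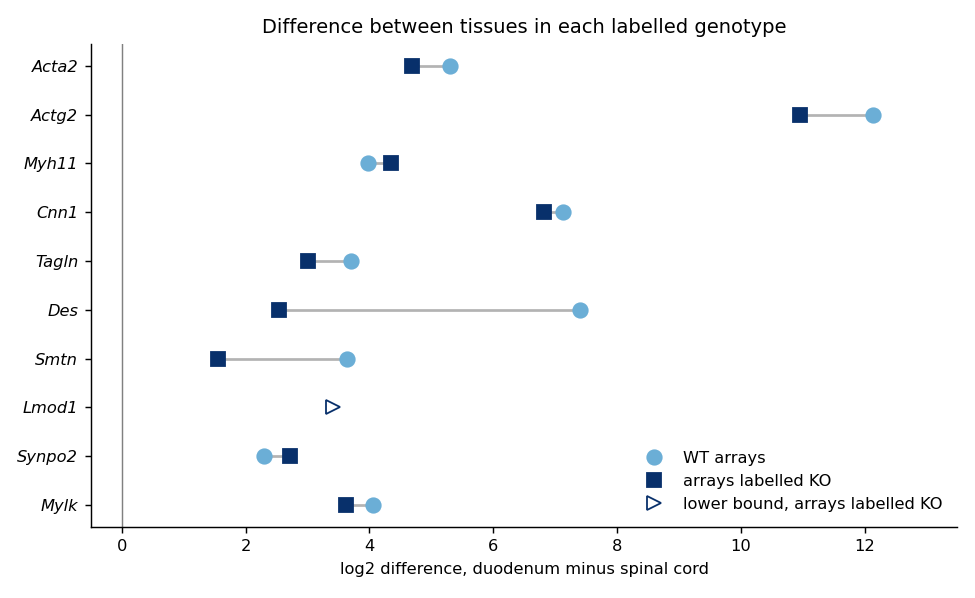
Log2 difference of duodenum minus spinal cord for each contractile gene, on the WT arrays (circles) and on the arrays labelled IP6K2-/- (squares), with a lower bound for Lmod1 (open triangle). Grey lines join the 2 values of a gene. Actg2 reaches 12.13 and 10.95, and Des has the longest line, from 7.40 to 2.53.

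In the duodenum, 7 of the 9 genes measured on both arrays were lower on the array labelled IP6K2-/- and 2 were not, with a median log2 difference over the 10 genes of -0.53, Lmod1 entered at 0. Over 21435 genes the median was 0, and among the 16816 genes detected on both duodenum arrays it was -0.11, with 5% of them below -1.74 and 5% above 1.16. Actg2, lower by 2.92-fold, and Des, lower by 2.68-fold, were past 2-fold, 2 of 10 genes, when 11.9% of the genes tested were at least 2-fold lower. None of the 10 was at least 2-fold higher, against 7.2% of genes tested, although in the deposited table Lmod1 was higher by 1.39. The share past 2-fold among so few genes is not far from that background, and every measured value lay within the central 90% of all genes measured on both arrays.

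The log2 difference was -1.55 for Actg2, with a technical SD of 0.067, and -1.42 for Des, with 0.035. The technical SD joins the spread on the 2 arrays compared and covers spots, not mice. For most genes it comes from the SD of single spots, over probes spotted 10 times on an array. For Acta2 and Des it is a standard error, the SD of their own 10 spots divided by the square root of 10. Their values are smaller for that reason. Cnn1 differed by -0.78 and both Smtn probes by -0.78 and -0.86. Acta2 differed by -0.54, Mylk by -0.52 and Tagln by -0.30. Each of these differences was more than 3 times its technical SD.

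The other genes gave no decrease of that kind. Myh11 differed by 0.14 with a technical SD of 0.091, and by -0.02 under normexp, and the brightest Synpo2 probe by 0.02 with a technical SD of 0.082. A second Synpo2 probe differed by -0.45 with a technical SD of 0.25, so the probes of this gene disagreed by 0.47, the mean of its probes was at -0.31, and its dimmest probe was not well above background on the WT array. For Lmod1 the signal of 15.2 on the array labelled IP6K2-/- was below the level at which the dimmer WT array could show it, so no fold is given.

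Processing moved these values more than spots did. Bright genes were lower as a whole on the array labelled IP6K2-/-, with a median of -0.52 in the brightest of 10 equal classes of genes, which holds Actg2, and of -0.24 in the next class, which holds Acta2, Cnn1, Tagln and Smtn. In the brightest class 24.0% of genes were at least 2-fold lower and the 5th percentile was -1.91, so Actg2 lay within the central 90% of that class. Des and Mylk lie in a class with a median of -0.0052 and a 5th percentile of -1.29, so Des was below the central 90% of genes of its own brightness. Quantile normalization of the 4 arrays gave a median of -0.31 for the contractile genes, and normexp background correction gave -0.09, with Acta2 at 0.06 and Tagln at 0.31. Scaled on the spiked-in control transcripts, the median gene was higher by 2.78 on the array labelled IP6K2-/- and the contractile genes by 2.47, which is -0.31 relative to the median gene. Relative to the median gene, 5 genes, Actg2, Des, Cnn1, Smtn and Mylk, were lower under each of the processings shown in the plot of settings, and Actg2 and Des were lowest under each.

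**Figure D3:**
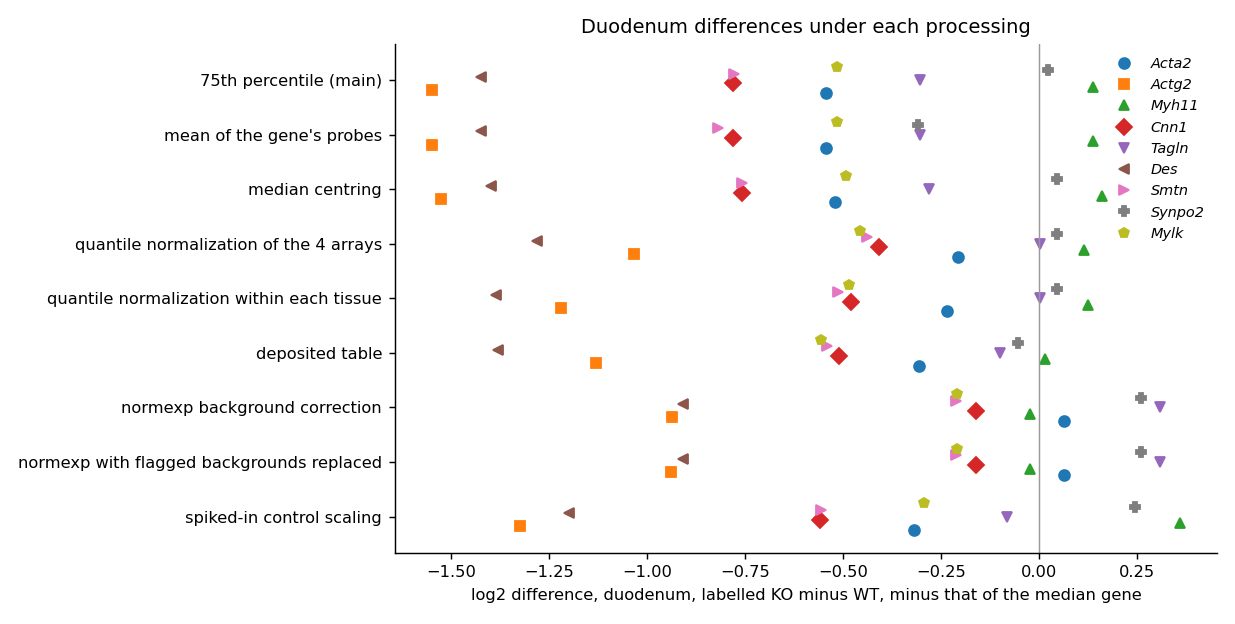
Log2 difference in the duodenum, array labelled IP6K2-/- minus WT array, minus that of the median gene (horizontal axis), for 9 contractile genes under the main processing and 8 alternatives. Lmod1 is left out because it had no fold to give under the main processing. Actg2 and Des stay between -1.55 and -0.91, whereas Acta2 and Tagln lie on both sides of 0.

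Markers of other cells moved in the same pair of duodenum arrays. All 7 pancreatic acinar genes were lower on the array labelled IP6K2-/-, with a median of -1.74, and their summed signal over the 75th percentile was 11144 on WT and 3562 on the other. That difference was not seen under quantile normalization of the 4 arrays, where 4 were higher and 3 lower with a median of 0.07, nor in the deposited table, with a median of 0.09. All 5 red cell genes were lower, with a median of -3.77 and sums of 1532 and 88.4, and under quantile normalization of the 4 arrays the median was -2.60. Of 8 intestinal epithelium genes 3 were above 0 and 5 below, with a median of -0.15 and the sums given above. Their direction turned under normexp, with 6 above 0 and a median of 0.50, and after the 4 arrays were quantile-normalized, with 6 above 0 and a median of 0.39. The sum of the contractile genes was 135 and 77.6. Of 7 pericyte and vascular mural markers, a class that includes vascular smooth muscle, 5 were lower, with a median of -0.91 and sums of 7.02 and 4.55. The list split, with 2 at least 2-fold lower and the 2 that were not lower at least 2-fold higher. Of all genes tested, 11.9% and 7.2% were so. Of 6 endothelial markers 3 were lower, with a median of -0.12 and sums of 16.6 and 4.15. Interstitial cells of Cajal, the pacemaker cells of the muscle layer, were represented by Kit, Ano1 and Etv1. By their brightest probes these were all higher, by 0.63, 0.84 and 0.58. By the mean of each gene's probes, 2 were above 0 and 1 below. Under normexp all 3 were above 0, with a median of 0.23. The part of these cell types in the differences of the contractile genes was not tested. In RNA of a whole organ, fewer muscle cells and less RNA per cell cannot be told apart.

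In the spinal cord the contractile genes split. The log2 difference of the array labelled IP6K2-/- from the WT array had a median of -0.08 over the 9 genes measured, close to the median of -0.04 over all genes. Des, higher by 10.9-fold, and Smtn, higher by 2.46-fold, were past 2-fold, when 2.28% of 25217 genes tested were at least 2-fold higher. None was at least 2-fold lower, as were 0.864% of genes tested. Without Des and Smtn the other 7 genes lay between -0.47 and 0.40.

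Des had a signal of 18.3 in WT and 213 in labelled IP6K2-/- spinal cord, a log2 difference of 3.44. Its technical SD of 0.055 is a standard error, and its 10 spots per array had SDs of 0.17 and 0.052. Smtn had signals of 1079 and 2850 by its brightest probe, a difference of 1.30 with a technical SD of 0.059, and 113 and 307 by its second probe, a difference of 1.34 with a technical SD of 0.078. Both Smtn probes thus moved alike. Tagln followed at 0.40, and Acta2, at 0.07, turned to -0.10 when the arrays were scaled on the spiked-in controls and under normexp correction. Smtn kept a difference between 1.13 and 1.43 under the alternatives tried. Des depended on the background correction. Its difference was 1.76 under normexp with flagged local backgrounds replaced, and -0.31 under normexp without that replacement, where the highest local background of the WT spinal cord array was 15708 and the median gene differed by -0.43.

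The other genes measured were not higher, and Cnn1 lay below the 5th percentile, -0.44, of genes measured on both arrays. Against genes of their own brightness class, Tagln, at 0.398, also lay above the 95th percentile, 0.303. The brightest Synpo2 probe, at -0.403, lay just below the 5th percentile of its class, -0.400. Actg2 differed by -0.37 with a technical SD of 0.30, near the background of the arrays, Myh11 by -0.23 with 0.12, Cnn1 by -0.47 with 0.088, Mylk by -0.08 with 0.083 and the brightest Synpo2 probe by -0.40 with 0.068. The other Synpo2 probes differed by -0.27 and -0.06. Lmod1 was not well above background on either spinal cord array.

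**Figure D4:**
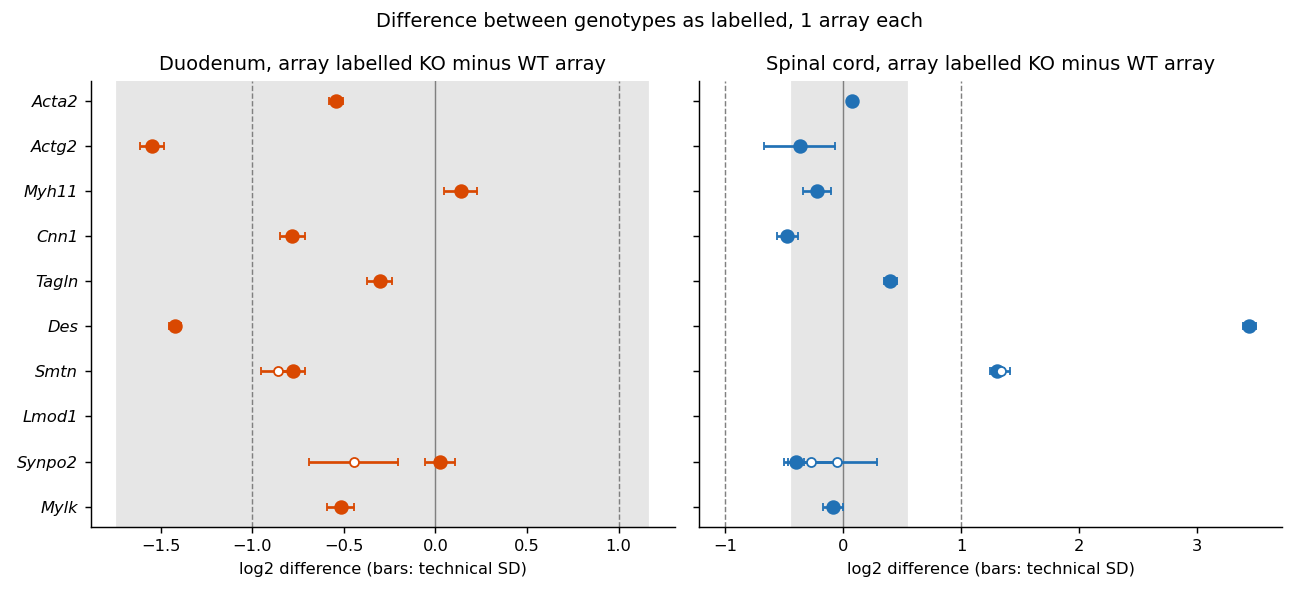
Log2 difference of the array labelled IP6K2-/- minus the WT array in the duodenum (left) and the spinal cord (right) for every probe of the contractile genes measured on both arrays. Filled points are the brightest probe of a gene and open points its other probes. Bars are the technical SD, which for Acta2 and Des is a standard error over their own spots. The grey band runs from the 5th to the 95th percentile of genes measured on both arrays, and dashed lines mark 2-fold. In the duodenum all points lie inside the band. In the spinal cord Des and Smtn lie far to its right and Cnn1 just to its left.

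Under the main processing, skeletal muscle genes were higher along with Des and Smtn in the spinal cord labelled IP6K2-/-. All 11 markers of that list were at least 2-fold higher, with a median log2 difference of 4.02, and their summed signal over the 75th percentile was 5.44 on WT and 86.8 on the array labelled IP6K2-/-. Ckm, muscle creatine kinase, was higher by 4.58, Acta1, the skeletal alpha actin, by 4.48, and Myh4, a fast myosin heavy chain, by 4.02. Desmin is known to be made in skeletal as well as smooth muscle. On the WT spinal cord array 10 of the 11 were already well above background, with Mylpf the exception. The list was thus present on both arrays and much brighter on one of them. Under normexp 10 of the 11 were still above 0 and 0 below, with a median of 2.67, whereas Des was at -0.31 and Smtn at 1.335. With flagged backgrounds replaced, the median of the list was 3.59, and Des was at 1.76.

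Connective tissue genes were higher too under the main processing. All 6 fibroblast markers were above 0, with a median of 1.15, sums of 6.73 and 15.0, and the largest differences for Col3a1, at 2.05, and Dcn, at 1.83. Under normexp, 3 of the 6 were above 0, with a median of 0.31. The 4 leptomeningeal markers had a median of 0.96 and sums of 0.67 and 3.45, with Ogn at 3.58. Under normexp, where the median gene differed by -0.43, their median was -0.066, with 2 above 0 and 2 below. With flagged backgrounds replaced the medians were 0.85 for the fibroblast and 0.73 for the leptomeningeal markers. Vascular cells differed less, with a median of 0.14 and sums of 4.17 and 4.21 for 7 pericyte and vascular mural markers, and a median of 0.22 and sums of 4.43 and 5.27 for 6 endothelial markers. Under normexp none of the 7 and 1 of the 6 were above 0, with medians of -0.15 and -0.51. Of the cardiac list Actc1, an actin of heart and of developing or regenerating skeletal muscle, was higher by 3.38, whereas Myh6, Tnnt2, Tnni3 and Nppa lay between -0.42 and -0.15. All 5 red cell genes were higher, 3 of them at least 2-fold, with a median of 1.16 and sums of 227 and 350. The part of these tissues in the Des and Smtn differences was not tested.

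**Figure D5:**
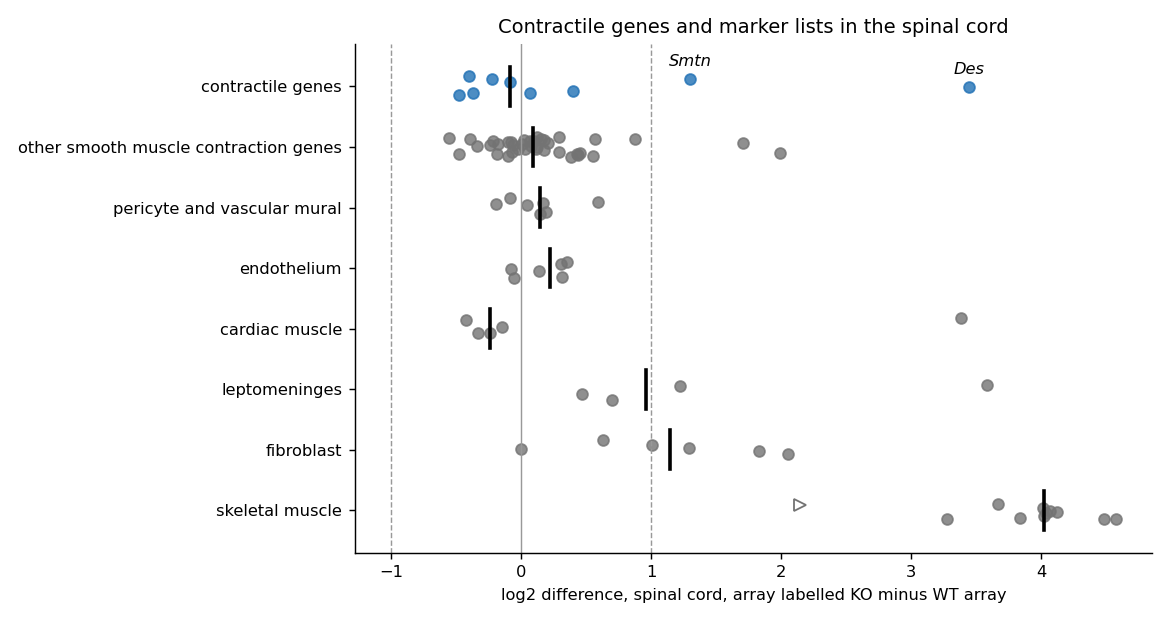
Log2 difference in the spinal cord, array labelled IP6K2-/- minus WT array (horizontal axis), for the contractile genes and 7 of the marker lists. Each point is a gene, open triangles are lower bounds, black bars are medians and dashed lines 2-fold. Under the main processing, shown here, Des lies near the skeletal muscle genes, whose median was 4.02, and most other contractile genes lie near 0.

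A wider list of 39 genes of smooth muscle contraction, covering regulatory light chains, tropomyosins, phosphatase subunits, channels and receptors, was measured beside them. In the duodenum 27 had values on both arrays, of which 12 were above 0 and 15 below, with a median of -0.27. Another 10 were detected on the brighter array labelled IP6K2-/- alone and could give a bound upwards or no fold. Of the 37 in all, 4 were at least 2-fold higher and 3 at least 2-fold lower, near the 7.2% and 11.9% of all genes tested. The 3 largest decreases were those of Ppp1r14a, which encodes the CPI-17 inhibitor of myosin phosphatase, at -2.08, Hspb6, a small heat shock protein of muscle, at -1.39, and Tpm2, beta-tropomyosin, at -1.06. The 3 largest increases were those of Nexn, nexilin, an F-actin binding protein, at 1.44, Tpm1, alpha-tropomyosin, at 1.02, and Mrvi1, a partner of cGMP-dependent kinase at the calcium store, at 1.02. The 5 Tpm1 probes ran from -0.52 to 1.02, so that gene has no single direction. The other gene past 2-fold was Chrm3, a muscarinic acetylcholine receptor, which was not well above background on the WT array and was at least 2.63-fold higher on the array labelled IP6K2-/-.

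In the spinal cord, 38 of the wider list were measured, with 24 above 0, 14 below and a median of 0.09. Those at least 2-fold higher numbered 2 and none was at least 2-fold lower, against 2.28% and 0.864% of genes tested. The 2 were Pdlim3, a PDZ and LIM domain protein of muscle Z-discs, at 1.99, and Tpm2, at 1.71, with 1.76 for its second probe. Cnn2, the calponin of many non-muscle cells, followed at 0.87. The largest decreases were those of Synm, the intermediate filament protein synemin, at -0.56, Cacna1c, an L-type calcium channel subunit, at -0.48, and Prkg1, a cGMP-dependent kinase, at -0.39. Under normexp, where the median gene differed by -0.43, 18 of the list were above 0 and 20 below. The median of the list was then -0.02, which is 0.41 relative to the median gene. Although 11 were at least 2-fold lower and 0 at least 2-fold higher, no share over all genes is given for this processing. With flagged backgrounds replaced, 22 were above 0, 16 below, 0 at least 2-fold lower and 2 at least 2-fold higher.

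The regulators of the contractile genes were measured on all 4 arrays. In the duodenum 5 of 6 were lower on the array labelled IP6K2-/-, with a median of -0.61. These were Srf at -0.81, Klf4 at -0.81, Mrtfa at -0.28, Mrtfb at -0.41 and the SRF partner Elk1 at -1.23. Elk1 alone was at least 2-fold lower, as were 11.9% of genes tested. The list was not split into activators and repressors. Under normexp Mrtfa and Mrtfb were at 0.22 and 0.075, and none was at least 2-fold lower. Under quantile normalization of the 4 arrays the median was -0.20, with 4 lower and 2 higher and Elk1 at 0.19. Myocd, myocardin, the coactivator restricted to cardiac and smooth muscle, was higher by 0.51, with signals of 7.22 and 48.8, but differed by -0.90 under normexp. In the spinal cord the 6 lay between -0.15 and 0.21. The cytoplasmic actins Actb and Actg1 differed by -1.66 and -0.18 in the duodenum, or by 0.03 and 0.81 after the 4 arrays were quantile-normalized, and by -0.09 and -0.18 in the spinal cord.

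The pattern over the 4 arrays was compared with that of all 16185 genes well above background on each of them. Each gene was centred on its own mean, and likeness was the root mean square distance to the median profile of the 9 contractile genes measured, which had values of -1.97, -1.96, 2.18 and 1.77 for WT and labelled IP6K2-/- spinal cord and then duodenum. The nearest was an identifier without a symbol, at 0.034, and the nearest named genes outside the list were Mvp, Lratd2, Nkiras2, Rxra, Sephs2, Rnf39, Ugdh and 2310039H08Rik, at distances between 0.057 and 0.084. Mylk, at 0.071, and Myh11, at 0.24, were the contractile genes nearest to the median, and Actg2, at 3.82, the farthest.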

How the data were processed

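RNA of spinal cord and duodenum from WT and IP6K2-/- mice was labelled with Cy3 from 0.1 ug of total RNA and read on 4 arrays, 1 per group. The deposited scanner files, made by the authors with Agilent Feature Extraction 11.5.1.1, hold an intensity per spot, the processed signal after background subtraction and detrending. The deposited series table holds log2 values, which matched log2 of the processed signal, floored at a signal of 1 and quantile-normalized over the 4 arrays, to within 0.0036 for the contractile gene probes well above background. Its column medians lay between 5.115 and 5.117 on the log2 scale, and every column was assigned to a sample.

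Control spots and outlier spots (89 to 133 of 43020 per array) were left out, log2 signals of spots of 1 probe were averaged, and each array's 75th percentile was subtracted. No spot was saturated. Of 26391 probes with an NM accession, 25868 were named through RefSeq accessions of GRCm38.p6, and a gene was represented by its brightest probe over the 4 arrays. A probe well above background on 1 of 2 arrays gives a bound. On the array where it was not detected it took its own normalized value or that of the dimmest detected probe, whichever was greater. It was entered at 0 where that left no fold. Genes at least 2-fold apart were counted over those detected on 1 or both of the arrays compared. The technical SD of a difference is the square root of the summed squares from its 2 arrays. On each array it takes the median SD over spots of the 50 probes nearest in brightness among 399 spotted 10 times. For probes themselves spotted 10 times, as for Acta2 and Des, it takes their own SD over the square root of the spots used, a standard error. No test was made, since each group is a single array, and the number of arrays limits the precision.

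Alternatives were normexp (limma 3.58.1, R 4.3.3, offset 50) on the median spot signal and local background, with or without flagged backgrounds replaced, quantile normalization, median centring, scaling on 8 spiked-in E1A control probes, the deposited table and the mean of a gene's probes. For the counts, a 1.5-fold threshold and other filters on dim probes were also tried. Python 3.11.15 with pandas 2.3.3, numpy 2.4.6 and matplotlib 3.10.9 was used, and the functions were tested on simulated data. The contractile genes and all marker lists were chosen with earlier results of these data known. Named genes are the contractile genes, Ip6k2, the 3 largest increases and decreases of the wider contraction list in each tissue, the brightest or undetected markers of other lists, and the 8 genes nearest in pattern. Markers of other lists singled out for the size of their difference were chosen after their values were seen. Promoter sequences are those of RefSeq (GRCm38.p6). Protein sequences were not used here. RefSeq table coordinates of genes were not used, since the array design names an older build.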

Additional observations from a re-analysis of the deposited data

Results flagged for a closer look

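Under the main processing, the difference between the array labelled IP6K2-/- and the WT array had opposite signs in the 2 tissues for 5 contractile genes. Each difference was larger than its technical SD. The differences between tissues were not tested, since each rests on 1 array per group. For Des the log2 difference was -1.42 in duodenum and 3.44 in spinal cord, which is -4.86 for duodenum minus spinal cord. For Smtn the values were -0.78 and 1.30, a gap of -2.08, and its second probe gave -2.20. For Tagln they were -0.30 and 0.40, a gap of -0.70. For Acta2 they were -0.54 and 0.07, a gap of -0.61. For Myh11 the signs ran the other way, with 0.14 and -0.23 and a gap of 0.36. Under normexp Myh11 had -0.02 in duodenum and -1.79 in spinal cord, and with flagged backgrounds replaced -0.02 and -0.14, so both signs were negative. Of the others, Smtn alone kept its signs under normexp, at -0.21 and 1.335. Des then had -0.91 and -0.31, Tagln 0.31 and 0.61, and Acta2 0.06 and -0.10, with its order turned. With flagged backgrounds replaced, Des had -0.91 and 1.76, Tagln 0.31 and 0.43, and Acta2 0.063 and 0.063. On spiked-in controls all 10 duodenum differences were above 0.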

How the results depend on the processing

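No paired analysis was possible because every group holds a single array. Relative to the median gene, all contractile genes measured kept their direction between tissues under each alternative, as did 9 of 9 between genotypes in the spinal cord and 5 of 10 in the duodenum. Depth of signal limits Lmod1, the dim Synpo2 probes and Actg2 in the spinal cord. The causes of the changes below were not tested.

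The median duodenum difference between genotypes, -0.53, was -0.092 under normexp and -0.093 with flagged backgrounds replaced, -0.31 under quantile normalization of the 4 arrays, -0.36 within each tissue, -0.31 in the deposited table and 2.47 on spiked-in controls, where the median gene differed by 2.78. The 2 genes past 2-fold became 0 under either normexp, 10 on spiked-in controls and 4 at 1.5-fold, and were 3 in the deposited table or without a filter on dim probes, with Lmod1 then higher. The spinal cord median, -0.08, was -0.85 under normexp and -0.25 on spiked-in controls. Under normexp, where the median gene differed by -0.43, 5 genes passed 2-fold, 4 of them lower. Shares over all genes are given for 2-fold under the main processing alone. The counts under other settings in either tissue thus have no background share beside them.

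The tissue difference relative to the median gene, 4.06 on WT arrays, was 2.95 under normexp, 3.17 with flagged backgrounds replaced, 3.35 under quantile normalization within each tissue, 4.28 under median centring, 3.35 on spiked-in controls, 4.35 in the deposited table and 3.43 over genes well above background on both arrays, an alternative chosen after seeing the data. On the arrays labelled IP6K2-/- it was 3.52, and 2.69 under either normexp, 3.42 and 3.23 under quantile normalization over 4 arrays and within tissues, 3.29 on spiked-in controls, 3.42 in the deposited table and 3.32 over genes on both arrays.

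Single genes reversed as follows, of those larger than 2 times their technical SD; of smaller ones in the duodenum, Myh11 was -0.024 under either normexp and Synpo2 -0.31 by the mean of its probes. In the duodenum Acta2 was 0.064 under normexp and 0.063 with flagged backgrounds replaced, and Tagln 0.31 under either normexp, 0.0017 and 0.0020 under quantile normalization over 4 arrays and within tissues, and 0.0037 in the deposited table. On spiked-in controls the duodenum differences were 2.46 for Acta2, 1.45 for Actg2, 2.22 for Cnn1, 2.70 for Tagln, 1.58 for Des, 2.22 for Smtn and 2.49 for Mylk. In the spinal cord Acta2 was -0.10 under normexp and on spiked-in controls, and Des -0.31 under normexp.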
